A study of Mus musculus with 16 samples.

Results

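Inflammatory cytokines and the genes that damp NF-kB signalling were followed in mouse macrophages with a progranulin knockout, with editing of the MiT/TFE transcription factor genes, or with both. The genes were Il1a, Il1b, Il1rn, Tnf, Il6, Nlrp3, Nfkbiz, Nfkbia, Tnfaip3 and Ptgs2, chosen by name, and each matched 1 row by its symbol, so they were 10 of the 56980 rows of the count table. A filter on low counts left 15385 genes for testing and 8 of these 10. Il6 and Il1a did not pass it and are described by their counts.

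NF-kB is a family of transcription factors that inhibitor proteins hold in the cytoplasm until a toll-like, interleukin-1 or TNF receptor signals. Once in the nucleus it switches on cytokine genes, and also the genes of its own inhibitors, so that the response ends itself. In resting macrophages the cytokine genes are nearly silent, while several feedback genes are transcribed at a basal level.

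RNA was measured by 3′ tag sequencing with unique molecular identifiers in bone-marrow-derived macrophages (BMDMs). Frozen stocks came from 12-week-old male mice, either Grn+/+ (WT) or Grn-/- (GrnKO), where Grn encodes progranulin, a secreted protein that also works in the lysosome. All groups shared the C57Bl/6J background, a knock-in of the human transferrin receptor (hTfR), growth in M-CSF and transfection with Cas9. The guides cut either the Rosa26 locus, a harmless site that served as the control edit, or Mitf, Tfe3 and Tfeb, which encode activators of lysosomal and autophagy genes (TKO). Endpoints were 10 days after transfection, with no inflammatory stimulus given in the labels. The edited cells are uncloned pools. There were 4 groups of 4 samples. By the series design each of 4 batches held 1 animal of each group, so the replicate number is the batch.

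Promoter sequence is shown for 5 of the 10 genes because these windows hold the motifs by which NF-kB and the MiT/TFE factors are known to bind. RefSeq promoters (GRCm38.p6) were at hand for 9 of the 10 genes, as 13 windows from 250 bases before to 50 bases after a start site. Nfkbiz was not among them. Capitals mark the NF-kB consensus, the E-box CACGTG of the MiT/TFE family, the AP-1 site TGANTCA and the CRE half-site TGACGT, each searched on both strands. Each line reads 5′ to 3′ on the strand of the gene.
Il6, chr5:30013054-30013113, plus strand: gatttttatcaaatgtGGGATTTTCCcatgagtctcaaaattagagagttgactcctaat
Nlrp3, chr11:59541358-59541417, plus strand: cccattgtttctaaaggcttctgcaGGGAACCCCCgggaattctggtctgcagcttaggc
Nfkbia, chr12:55492648-55492707, minus strand: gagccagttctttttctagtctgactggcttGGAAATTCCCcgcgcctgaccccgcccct
Tnfaip3, chr10:19015411-19015590, minus strand: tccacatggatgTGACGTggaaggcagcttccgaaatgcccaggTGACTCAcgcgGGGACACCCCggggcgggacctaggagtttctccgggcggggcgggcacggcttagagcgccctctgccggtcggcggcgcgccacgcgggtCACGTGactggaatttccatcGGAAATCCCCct
Ptgs2, chr1:150100035-150100064, plus strand: tcaccactACGTCACGTGgagtccgcttta

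The NF-kB consensus matched in 4 of the 13 windows, 1 each of Il6, Nlrp3, Nfkbia and Tnfaip3 (with 2 matches in Tnfaip3), and so in 4 of the 9 genes searched. Over all 32851 promoters of this length, 8.46% held it. An E-box lay in Tnfaip3, 33 bases before the start, and in Ptgs2, 17 bases after it, against 7.15% of all promoters. In Ptgs2 the E-box shares letters with a CRE half-site, which matched in 3 of the 13 windows (7.51% of all promoters). AP-1 sites matched in 4 of the 13, including those of Il1a and Il1rn (7.81% of all promoters). A match describes these letters only, and binding was not measured here.

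Several properties of the libraries bear on what follows. Among the GrnKO libraries, totals ran from 28431505 to 32969401 counts with the Rosa26 edit and from 18387499 to 28511718 with the TKO edit. Among the WT libraries they ran from 16246549 to 21463565 with the TKO edit and from 7069445 to 22469333 with the Rosa26 edit, where replicate 1 was the shallowest of all 16. Grn lay at 2522 to 3693 CPM (counts scaled to a library size of 1000000) in WT libraries and 40.7 to 56.1 CPM in GrnKO libraries. Tfe3 fell with editing in WT (-0.90 ± 0.17, log2 ± SE, adjusted p = 0.0108) and GrnKO (-0.51 ± 0.17, adjusted p = 0.0351), Mitf gave -0.25 ± 0.09 in WT (adjusted p = 0.172) and rose by 0.25 ± 0.09 in GrnKO (adjusted p = 0.049). Tfeb gave -0.19 ± 0.12 in WT (adjusted p = 0.474) and -0.25 ± 0.12 in GrnKO (adjusted p = 0.133). A 3′ tag can lie outside the cut, so these RNA levels do not check the edit. Although all mice are labelled male, 10 libraries held Xist at 169 CPM or more with the Y-linked Ddx3y at 0.0552 to 1.23 CPM. Both WT libraries of batch 2 held both transcripts, with Xist at 212 and 218 CPM and Ddx3y at 34.2 and 31.7 CPM. Both WT libraries of batch 3 and both GrnKO libraries of batch 4 were low in Xist (2.93 to 25.2 CPM) and high in Ddx3y (97.3 to 122 CPM). The 6 libraries with Ddx3y above 10 CPM are those left out below. In every batch both libraries of a genotype thus had the same pattern of these transcripts, though the series design counts them as separate animals. Whether they share a source was not tested. The batch term of the main fit is common to both genotypes, and results with a replicate block per genotype are given where calls changed. Summed macrophage markers, all 10 of them detected, were lowest in GrnKO Rosa26 (6584 to 6982 CPM), next in GrnKO TKO (8018 to 8870 CPM) and highest in WT TKO (10030 to 10430 CPM) and WT Rosa26 (8530 to 11040 CPM). A sum is weighted to the most abundant genes, and singly these markers were split. With Grn loss in Rosa26 cells 4 of the 10 fell and 2 rose (median -0.20), beside 21.5% and 23.1% of all genes. Itgam fell by 1.46 ± 0.12, while Mertk rose by 0.95 ± 0.10. Summed markers of neutrophils, which also express several of these cytokines, overlapped between all groups (71.5 to 132 CPM), and their defining Ly6g was at 0.118 CPM or less. The 11 lymphocyte markers summed to 15.9 to 25.4 CPM in GrnKO Rosa26 and 4.49 to 10.8 CPM elsewhere, almost all of it Ighm, with the T cell marker Cd3e at 0.368 CPM or less. The part of depth, of these markers and of the sex-linked difference in the results below was not tested, except where values without the libraries are given. In bulk RNA, fewer cells of a type and less RNA per cell cannot be told apart.

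Loss of Grn in control-edited cells went with lower RNA of 5 of the 8 tested genes. Nfkbiz was 2.93-fold lower, Ptgs2 2.24-fold and Nlrp3 2.02-fold, while Tnf (1.49-fold) and Tnfaip3 (1.68-fold) moved less. Il1b, Il1rn and Nfkbia did not pass the threshold, an adjusted p under 0.05 in edgeR's quasi-likelihood test with Benjamini-Hochberg adjustment over all genes tested. Over all genes, 44.6% passed in this comparison, 21.5% downward and 23.1% upward (3548 of 6858 upward, or 4793 of 7302 by limma-trend on the authors' normalised signal). The median of the 8 genes was -0.66 (log2), beside 0.00 for all genes. CPM of the groups did not overlap for Nfkbiz, Ptgs2 and Nlrp3, as for 34.5% of all genes tested.

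Editing of Mitf, Tfe3 and Tfeb in GrnKO cells went with higher RNA of those same 3 genes, Nfkbiz, Ptgs2 and Nlrp3, by 2.54-fold, 2.19-fold and 1.84-fold. The other 5 did not pass. Over all genes 32.6% passed, 14.8% upward and 17.8% downward (2271 of 5011, or 1661 of 4884 by limma-trend), and CPM did not overlap for these 3 genes as for 31.8% of all genes. The median of the 8 genes was 0.38, beside 0.00 (-0.0049) for all genes. This comparison shares the GrnKO Rosa26 libraries with the preceding one, so a low value there enters both.

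In WT cells the same edit raised 2 of the 8 genes, Ptgs2 by 1.81-fold and Nfkbia by 1.31-fold. Over all genes 3.35% passed here, 2.18% upward (336 of 515, or 472 of 597 by limma-trend), and with a replicate block per genotype 1171 genes passed. Of the 8, Ptgs2 alone had CPM that did not overlap between the groups, against 5.62% of all genes. In edited cells, loss of Grn lowered 1 of the 8, Ptgs2, by 1.85-fold, where 4.99% of all genes passed, 2.53% upward and 2.45% downward. CPM again did not overlap for Ptgs2, as for 8.42% of all genes.

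When doubly altered cells (GrnKO TKO) were set against unaltered controls (WT Rosa26), edgeR's quasi-likelihood test called 0 of the 8 genes, and 12.7% of all genes, 6.43% upward and 6.25% downward (989 of 1950 upward, or 1390 of 2093 by limma-trend). CPM overlapped for all 8 genes and did not for 9.55% of all genes. At an unadjusted p under 0.05, edgeR gave 0, limma-trend 0 and DESeq2 1, and neither of the latter called any after adjustment. The log2 differences lay between -0.43 and 0.13. A missed threshold does not show equal levels. Ptgs2 differed by -0.03 ± 0.16 and Tnfaip3 by -0.43 ± 0.25. The effect of editing differed between the genotypes for 2 of the 8 genes, Nlrp3 and Nfkbiz, against 13.4% of all genes, 5.80% upward and 7.63% downward (893 of 2067 upward, or 627 of 2654 by limma-trend). With a replicate block per genotype it differed for 3 of the 8, Il1b being added, and for 3607 genes in all.

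**Figure D1:**
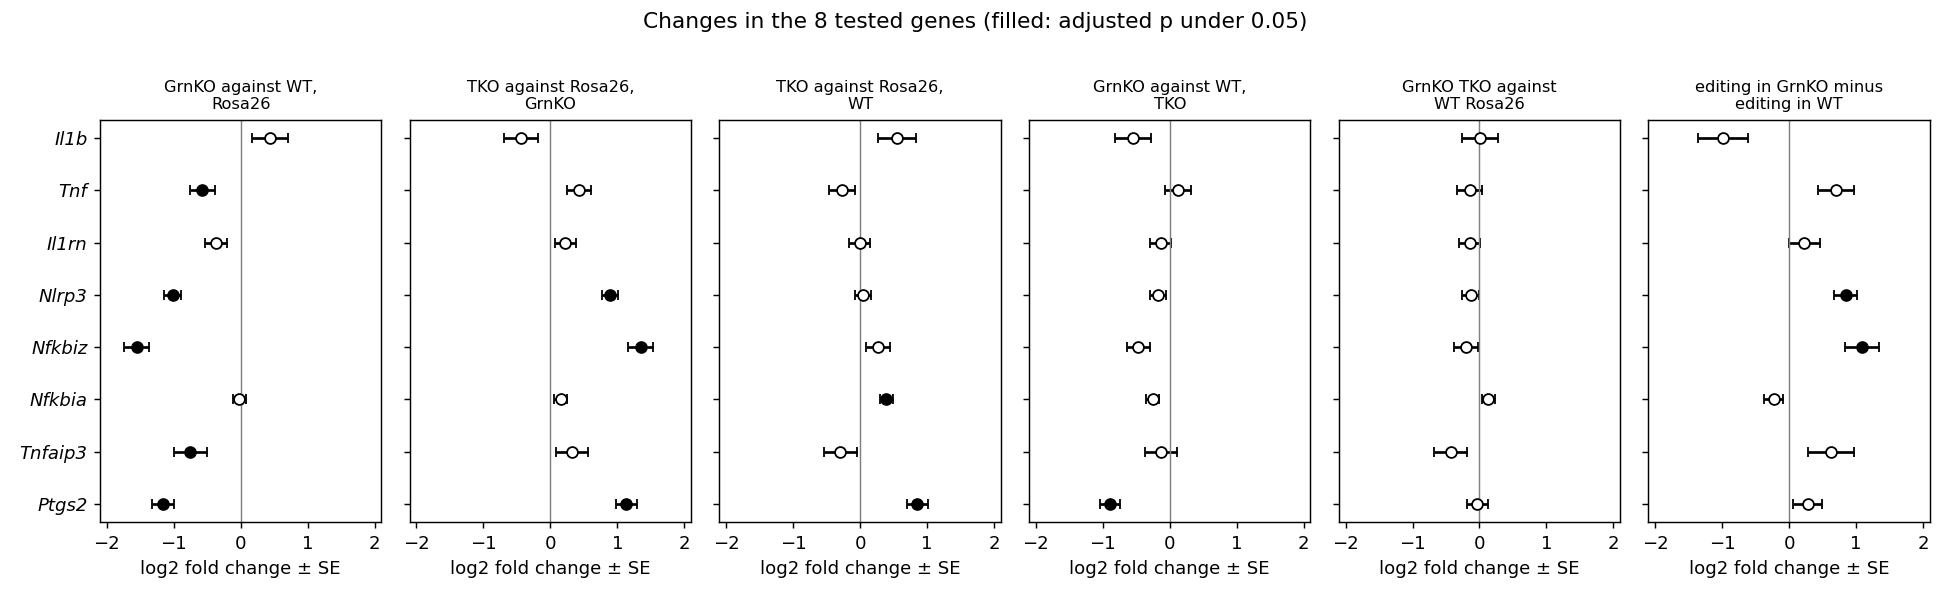
Log2 fold change ± SE (edgeR, 4 samples a group) of the 8 tested genes in the 6 comparisons, with filled points where the adjusted p is under 0.05. Nfkbiz, Ptgs2 and Nlrp3 lie farthest left with Grn loss and farthest right with editing of GrnKO cells, and no point is filled for GrnKO TKO against WT Rosa26.

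Among the cytokines, Tnf (ENSMUSG00000024401) encodes tumour necrosis factor, an early activator of other cells. Its level in replicates 1 to 4 was 4.92, 3.29, 3.79 and 2.74 CPM in WT Rosa26 and 2.69, 2.30, 3.71 and 3.13 CPM in WT TKO. In GrnKO Rosa26 it was 2.07, 2.28, 2.87 and 2.33 CPM, while GrnKO TKO had 3.75, 2.54, 3.79 and 2.93 CPM. The GrnKO Rosa26 values sat lowest as a group but overlapped WT Rosa26, where replicate 1 was highest. By mean, the order was WT Rosa26 (3.68 ± 0.930 CPM, SD, n = 4), GrnKO TKO (3.25 ± 0.618), WT TKO (2.96 ± 0.608) and GrnKO Rosa26 (2.39 ± 0.337). Neighbours differed by less than 1 SD of either group, except at the last step, which was within the SD of WT TKO but beyond that of GrnKO Rosa26. Tnf fell with Grn loss by 0.57 ± 0.19 (adjusted p = 0.0199), in 4 of 4 batches (-1.26 to -0.24). The call was lost without WT Rosa26 replicate 1 (-0.44, adjusted p = 0.0755), GrnKO Rosa26 replicate 1 (-0.46, adjusted p = 0.081) or WT Rosa26 replicate 2 (-0.53, adjusted p = 0.0624), and without the 6 libraries with Ddx3y (-0.59, adjusted p = 0.167). It was also lost with no filter on low counts (-0.46, adjusted p = 0.161) and in a fit of only the groups compared (-0.58, adjusted p = 0.0683). With editing of GrnKO cells Tnf was 0.43 ± 0.18 higher (adjusted p = 0.0827), higher in 4 of 4 batches, and the difference between the genotypes in the effect of editing was 0.70 ± 0.27 (adjusted p = 0.0874).

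Il1b (ENSMUSG00000027398) encodes interleukin-1 beta, which is cut and released by inflammasomes. Its range was 1.33 to 2.34 CPM in GrnKO Rosa26 and 0.883 to 1.72 CPM in GrnKO TKO, against 0.878 to 2.15 CPM in WT Rosa26 and 1.30 to 2.80 CPM in WT TKO, so that all groups overlapped. These values rest on 14 to 77 counts a library, and none of the 6 comparisons passed the threshold with a batch term common to both genotypes. The largest was the difference in the effect of editing between the genotypes, -0.99 ± 0.38 (adjusted p = 0.0872), which passed with a replicate block per genotype (-0.95, adjusted p = 0.0402), with Il1b higher after editing in 4 of 4 batches of WT cells (0.55 ± 0.28, adjusted p = 0.333) and lower in 4 of 4 batches of GrnKO cells (-0.43 ± 0.25, adjusted p = 0.201).

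Il6 (ENSMUSG00000025746) encodes interleukin-6, a cytokine of the acute phase response, and was close to undetected. The libraries of replicates 1 to 4 held 0, 2, 0 and 2 counts in WT Rosa26 and 4, 15, 6 and 12 counts in WT TKO. GrnKO Rosa26 held 2, 3, 4 and 2 counts, and GrnKO TKO 7, 4, 2 and 5. WT TKO was the highest group, at 0.219 to 0.932 CPM, and did not overlap WT Rosa26, at 0 to 0.137 CPM. Between these groups CPM did not overlap for 5.62% of the genes that passed the filter. A count of 0, taken to allow up to 3 counts, allows up to 0.462 CPM in the shallow WT Rosa26 replicate 1, above the 0.219 CPM of WT TKO replicate 1, and up to 0.135 CPM in replicate 3. In a fit of 46964 genes with no filter, Il6 rose with editing in WT cells by 2.85 ± 0.75 (adjusted p = 0.0138), and its other comparisons did not pass. In that fit 725 genes passed with editing in WT cells, 520 of them upward. The Il6 call rests on 4 counts in all of WT Rosa26. Il1a (ENSMUSG00000027399), of the cell-associated interleukin-1 alpha, had 0 to 7 counts a library, with groups that overlapped throughout and no comparison past the threshold in that fit.

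Il1rn (ENSMUSG00000026981) encodes the secreted antagonist of the interleukin-1 receptor and, unlike the cytokines, was covered by 3700 counts or more in every library. Replicates 1 to 4 had 569, 356, 419 and 241 CPM in WT Rosa26 and 411, 354, 542 and 263 CPM in WT TKO. In GrnKO Rosa26 they had 272, 304, 349 and 257 CPM, while GrnKO TKO had 425, 251, 468 and 281 CPM. The spread within groups was as wide as that between them, and batches 1 and 3 were high in 3 of the 4 groups. No comparison of Il1rn passed. With Grn loss it was -0.37 ± 0.16 (adjusted p = 0.0783), lower in 3 of 4 batches, and 6 of 24 alternative settings put this past the threshold (adjusted p 0.0281 to 0.372 over all settings).

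**Figure D2:**
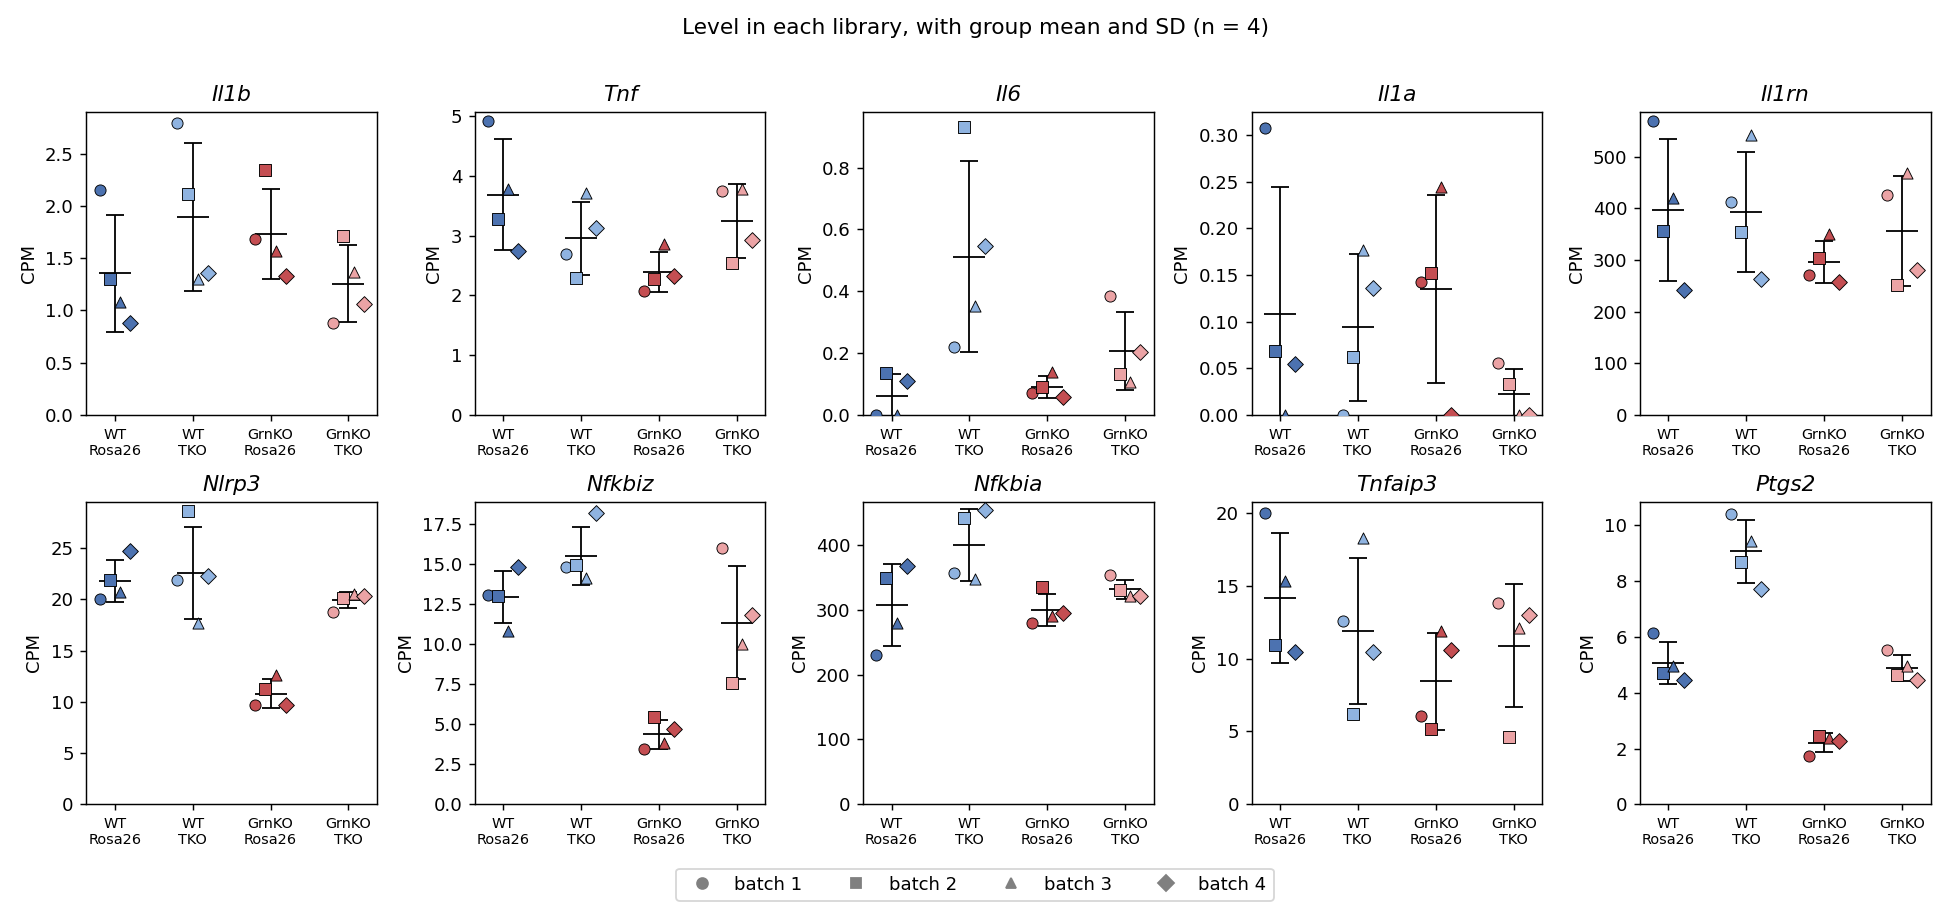
CPM of the 10 genes in each of the 16 libraries by group, with marker shape for the batch, and lines for the mean and SD of 4 libraries. Nlrp3, Nfkbiz and Ptgs2 have their lowest values in all 4 GrnKO Rosa26 libraries, Ptgs2 has its highest in WT TKO, and Tnf, Tnfaip3 and Il1rn overlap between all groups.

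Nlrp3 (ENSMUSG00000032691) encodes the sensor of the inflammasome that activates caspase-1, and its transcription by NF-kB is the priming step of that complex. It stood at 20.0, 21.9, 20.7 and 24.7 CPM in replicates 1 to 4 of WT Rosa26 and 21.9, 28.6, 17.7 and 22.2 CPM in WT TKO. GrnKO Rosa26 had 9.65, 11.3, 12.6 and 9.73 CPM, and GrnKO TKO 18.8, 20.1, 20.5 and 20.3 CPM. Every GrnKO Rosa26 library lay below every library of the other 3 groups, and those 3 groups overlapped one another. Means ran from WT TKO (22.6 ± 4.49 CPM) through WT Rosa26 (21.8 ± 2.06) and GrnKO TKO (19.9 ± 0.797) to GrnKO Rosa26 (10.8 ± 1.39). Nlrp3 fell with Grn loss by 1.02 ± 0.12 (adjusted p = 3.05e-06), in 4 of 4 batches (-1.34 to -0.72). It rose with editing of GrnKO cells by 0.88 ± 0.12 (adjusted p = 3e-05), in 4 of 4 batches (0.71 to 1.06). In WT cells editing gave 0.04 ± 0.12 (adjusted p = 0.905), and the difference between the genotypes was 0.84 ± 0.17 (adjusted p = 0.00413). In edited cells Grn loss gave -0.18 ± 0.12 (adjusted p = 0.452). Without the libraries with Ddx3y, Nlrp3 still fell by 1.02 with Grn loss (adjusted p = 0.000424) and rose by 0.83 with editing of GrnKO cells (adjusted p = 0.00173).

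Nfkbiz (ENSMUSG00000035356) encodes IkB-zeta, an inducible nuclear member of the IkB family that acts with NF-kB at a subset of its targets, Il6 among them. In replicates 1 to 4 it was at 13.1, 13.0, 10.8 and 14.8 CPM in WT Rosa26 and 14.8, 14.9, 14.1 and 18.2 CPM in WT TKO. GrnKO Rosa26 gave 3.43, 5.48, 3.84 and 4.72 CPM, and GrnKO TKO 16.0, 7.59, 9.99 and 11.8 CPM. GrnKO Rosa26 was again below all other libraries, and GrnKO TKO was the most variable group, with replicate 1 among the WT TKO values and replicate 2 nearest to GrnKO Rosa26. Group means were 15.5 ± 1.80 CPM in WT TKO, 12.9 ± 1.64 in WT Rosa26, 11.3 ± 3.55 in GrnKO TKO and 4.37 ± 0.913 in GrnKO Rosa26, and between neighbours in this order CPM overlapped except at the last step. Nfkbiz fell with Grn loss by 1.55 ± 0.18 (adjusted p = 3.47e-06), the greatest difference among the 8 genes in any of the 6 comparisons, with -1.93 to -1.25 in the 4 batches. Editing of GrnKO cells raised it by 1.35 ± 0.18 (adjusted p = 3.48e-05), with 0.47 to 2.22 in the 4 batches. In WT cells the edit gave 0.26 ± 0.18 (adjusted p = 0.489), and the effects in the 2 genotypes differed by 1.08 ± 0.25 (adjusted p = 0.00979). That difference was 1.15 without the libraries with Ddx3y and no longer passed (adjusted p = 0.12). In edited cells Grn loss gave -0.47 ± 0.17 (adjusted p = 0.129), which became -0.71 and passed without GrnKO TKO replicate 1 (adjusted p = 0.0129).

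Nfkbia (ENSMUSG00000021025) encodes IkB-alpha, the inhibitor that NF-kB restores first after activation. Its CPM in replicates 1 to 4 was 231, 349, 279 and 368 in WT Rosa26 and 356, 441, 348 and 454 in WT TKO. GrnKO Rosa26 had 279, 335, 290.0 and 295 CPM, and GrnKO TKO had 353, 329.8, 321 and 321 CPM. WT TKO was highest on average (399.9 ± 55.5 CPM), followed by GrnKO TKO (331 ± 15.2), WT Rosa26 (307 ± 63.2) and GrnKO Rosa26 (299.6 ± 24.3), and WT TKO overlapped both WT Rosa26 and GrnKO TKO. Nfkbia rose with editing in WT cells by 0.39 ± 0.10 (adjusted p = 0.034), in 4 of 4 batches (0.31 to 0.63). This call ended when any one of 7 libraries was left out, both replicates 1 and both replicates 2 of WT, GrnKO Rosa26 replicate 2, WT Rosa26 replicate 3 or WT TKO replicate 4 (0.29 to 0.42, adjusted p 0.0509 to 0.137), and without the libraries with Ddx3y (0.43, adjusted p = 0.536). With Grn loss in control-edited cells Nfkbia gave -0.02 ± 0.10 (adjusted p = 0.872), in a comparison where Nfkbiz, of the same protein family, fell. In edited cells it was -0.26 ± 0.10 with Grn loss (adjusted p = 0.14), and without GrnKO TKO replicate 1 this passed at -0.36 (adjusted p = 0.0421).

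Tnfaip3 (ENSMUSG00000019850) encodes A20, a ubiquitin-editing enzyme that shuts off signalling upstream of NF-kB. It was at 20.0, 11.0, 15.3 and 10.4 CPM in WT Rosa26 and 12.6, 6.21, 18.3 and 10.4 CPM in WT TKO, by replicate. In GrnKO Rosa26 it was at 6.08, 5.17, 11.9 and 10.6 CPM, while GrnKO TKO had 13.8, 4.62, 12.1 and 13.0 CPM. All 4 groups overlapped, and batch 2 was low in each of them or next to lowest. The means, WT Rosa26 (14.2 ± 4.46 CPM), WT TKO (11.9 ± 5.02), GrnKO TKO (10.9 ± 4.23) and GrnKO Rosa26 (8.44 ± 3.31) from high to low, differ between neighbours by less than 1 SD. Tnfaip3 fell with Grn loss by 0.75 ± 0.25 (adjusted p = 0.0229), in 3 of 4 batches (-1.72 to 0.03). Without the batch term this did not pass (adjusted p = 0.156), nor without WT Rosa26 replicate 1 (-0.61, adjusted p = 0.0798), GrnKO Rosa26 replicate 1 (-0.53, adjusted p = 0.0632), WT Rosa26 replicate 2 (-0.56, adjusted p = 0.0943) or the libraries with Ddx3y (-0.93, adjusted p = 0.123). The other 5 comparisons of Tnfaip3 did not pass.

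Ptgs2 (ENSMUSG00000032487) encodes cyclooxygenase-2, the inducible enzyme of prostaglandin synthesis. Its values in replicates 1 to 4 were 6.16, 4.72, 4.96 and 4.44 CPM in WT Rosa26 and 10.4, 8.70, 9.43 and 7.72 CPM in WT TKO. GrnKO Rosa26 had 1.72, 2.46, 2.38 and 2.27 CPM, and GrnKO TKO had 5.52, 4.62, 4.94 and 4.47 CPM. Ptgs2 thus fell into 3 tiers with no overlap, with WT TKO (9.07 ± 1.14 CPM) above WT Rosa26 (5.07 ± 0.754) and GrnKO TKO (4.89 ± 0.463), which shared the middle tier, and GrnKO Rosa26 (2.21 ± 0.337) below. It was the one gene of the 8 called in 4 of the comparisons. Ptgs2 fell with Grn loss by 1.16 ± 0.16 in control-edited cells (adjusted p = 1.52e-05) and by 0.89 ± 0.15 in edited cells (adjusted p = 0.00182). It rose with editing by 1.13 ± 0.16 in GrnKO cells (adjusted p = 3.91e-05) and by 0.85 ± 0.15 in WT cells (adjusted p = 0.00348), each in 4 of 4 batches. The effects of editing in the genotypes differed by 0.27 ± 0.22 (adjusted p = 0.428). Without the libraries with Ddx3y, which left 2 libraries in each WT group and 3 in each GrnKO group, the changes in edited cells (-0.85, adjusted p = 0.181) and in WT cells (0.82, adjusted p = 0.399) kept their size and did not pass.

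How the genes varied together across the 16 libraries is given as Pearson correlations of log2 CPM, over libraries that share groups, batches and differences in depth. Nfkbiz and Ptgs2 correlated at 0.897, Nlrp3 and Nfkbiz at 0.882, and Nlrp3 and Ptgs2 at 0.827. After the group means were taken out these values were 0.274, 0.0559 and -0.109, so that the values over all libraries followed the groups. Tnf and Tnfaip3 correlated at 0.814 over all libraries and 0.802 within groups, Il1rn and Tnf at 0.762 and 0.803, and Il1rn and Tnfaip3 at 0.668 and 0.616. Tnf, Tnfaip3 and Il1rn thus varied together among replicates of a group. Nfkbia ran opposite to them within groups, at -0.662 with Il1rn, -0.572 with Tnf and -0.549 with Tnfaip3. It was at -0.442 with Ptgs2, and positive with Nlrp3 (0.549) and Nfkbiz (0.426). Only group means were taken out, so differences of batch and depth remain in the values within groups, and their part was not tested. Ptgs2 also varied with Il1rn (0.492 over all libraries, 0.707 within groups) and with Tnf (0.469 and 0.578). Il1b ranged from -0.329 with Tnfaip3 to 0.175 with Il1rn over all libraries, and from -0.386 with Nfkbia to 0.433 with Ptgs2 within groups.

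**Figure D3:**
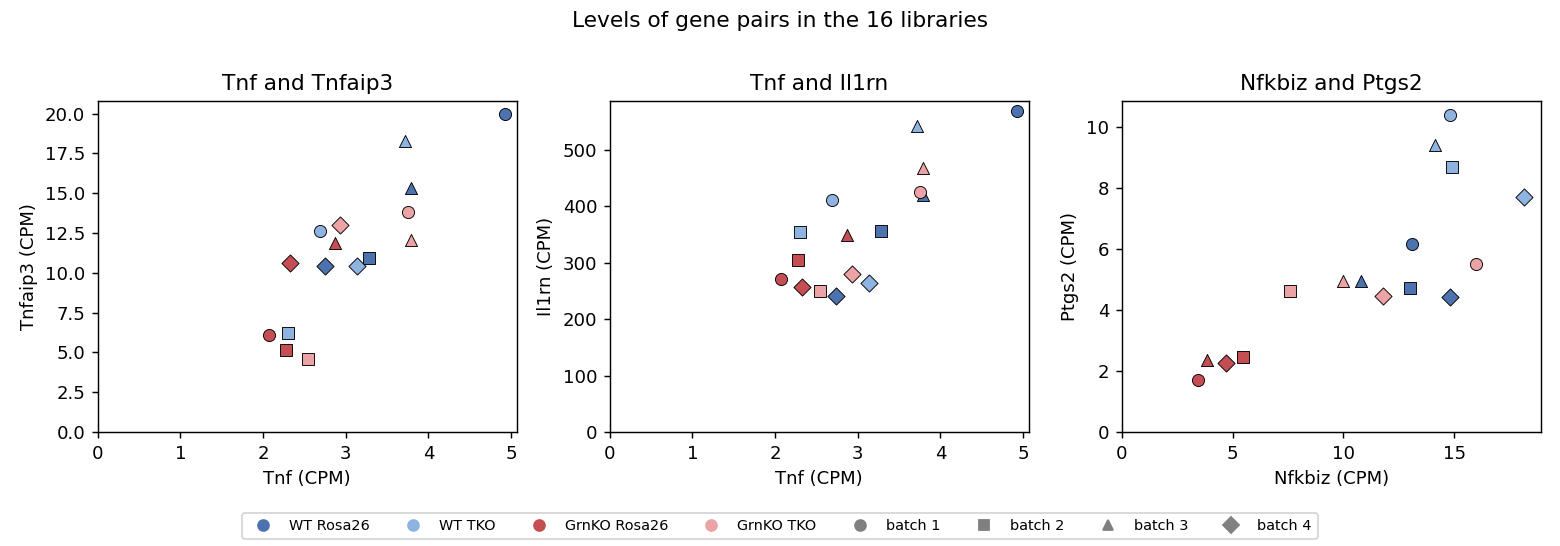
CPM of 3 gene pairs in the 16 libraries, with colour for the group and marker shape for the batch. Tnfaip3 and Il1rn climb with Tnf inside single groups, where WT Rosa26 replicate 1 is the highest of all for each gene, while Nfkbiz and Ptgs2 are set apart by group, with the 4 GrnKO Rosa26 libraries at lower left.

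The genes most like each member over the 16 libraries were sought among 9699 others with a mean of 5 CPM or more. Inpp4b, of an inositol phosphatase, had the highest correlation of all, 0.974 with Nfkbiz, followed for that gene by Itgam (0.949) and Gpcpd1 (0.939). Inpp4b was lowest in GrnKO Rosa26 (9.03 ± 0.734 CPM), beside 23.6 ± 5.47 CPM in GrnKO TKO, 24.4 ± 2.22 CPM in WT Rosa26 and 27.2 ± 2.01 CPM in WT TKO. Among those nearest to Ptgs2 were Itgam (0.961), the integrin chain CD11b, and the chemokine Cxcl2 (0.958). Cxcl2 had the tiers of Ptgs2 in its means, with 126 ± 20.3 CPM in WT TKO, 57.0 ± 6.68 in WT Rosa26, 52.2 ± 19.4 in GrnKO TKO and 15.8 ± 3.23 in GrnKO Rosa26. For Nlrp3 the nearest were Ifitm6 (0.947), Nsd2 (0.941) and Vcan (0.941), for Tnfaip3 Plscr1 (0.943), Numb (0.941) and Eaf1 (0.915), and for Tnf Pcgf5 (0.888), Rpe (0.887) and AW209491 (0.881). Il1rn was nearest to Fgfr1 (0.914) and the glycolytic genes Ldha (0.904) and Gapdh (0.887). Nfkbia was nearest to ENSMUSG00000120849 (0.948), Ing3 (0.928) and Als2cl (0.921). Il1b, with only 14 to 77 counts a library, had no close partner, with Selenbp1 first at 0.691. The part of its low counts in this was not tested.

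The counts for the lists that follow stand beside 23.1% of all genes rising and 21.5% falling with Grn loss in Rosa26 cells, and 14.8% rising and 17.8% falling with editing of GrnKO cells. Of the NF-kB subunits and their kinases, 5 of 11 fell and 2 rose with Grn loss in control-edited cells, with a median of -0.26. Nfkb1, which encodes the p105 precursor of p50, fell by 0.81 ± 0.12 (adjusted p = 1.82e-05) from 33.3 ± 2.77 to 19.1 ± 2.49 CPM. Ikbkg, of the kinase scaffold NEMO, fell by 0.95 ± 0.10 (adjusted p = 3.87e-07). Both rose with editing of GrnKO cells, Nfkb1 by 0.46 ± 0.11 (adjusted p = 0.0044) and Ikbkg by 0.45 ± 0.10 (adjusted p = 0.00162), where 2 of 11 rose and 1 fell. Scaling by RLE left these counts as they were. By limma-trend on the authors' signal, which changes the tool and the input together, 3 fell and 3 rose with Grn loss, and 2 rose and 2 fell with editing.

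Of the other feedback genes of the pathway, 8 of 17 fell and 4 rose with Grn loss (median -0.31), and 6 rose and 2 fell with editing of GrnKO cells (median 0.15). By limma-trend 6 fell and 4 rose, and then 5 rose and 2 fell. Tnip3, an NF-kB-induced partner of A20, was at 26.9 ± 2.12 CPM in WT Rosa26 and at 9.57 ± 1.58 CPM in GrnKO Rosa26 and fell by 1.49 ± 0.11 (adjusted p = 6.7e-09). It rose by 0.87 ± 0.11 with editing of GrnKO cells (adjusted p = 9.92e-06) and fell by 0.45 ± 0.11 with editing of WT cells (adjusted p = 0.0207). Socs3, a brake on cytokine receptor signalling, rose with editing in both genotypes, by 2.02 ± 0.26 in GrnKO (adjusted p = 1.92e-05) and 1.87 ± 0.26 in WT (adjusted p = 0.00024). It was at 0.407 ± 0.158 and 1.68 ± 0.289 CPM in GrnKO Rosa26 and GrnKO TKO, and at 0.897 ± 0.143 and 3.36 ± 0.251 CPM in WT Rosa26 and WT TKO, with no overlap between any of the groups. Tollip, an adaptor that restrains interleukin-1 receptor signalling, rose with Grn loss by 0.73 ± 0.09 (adjusted p = 2.21e-06).

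Genes that destroy cytokine mRNA or switch off MAP kinases gave 5 of 14 falling and 2 rising with Grn loss (median -0.09), and 6 rising and 2 falling with editing of GrnKO cells (median 0.17), or 3 and 3 by limma-trend. Dusp1, the phosphatase that inactivates p38 and JNK, fell by 1.00 ± 0.09 (adjusted p = 6.88e-08) from 188 ± 31.6 to 93.1 ± 13.0 CPM, and rose by 0.69 ± 0.09 with editing of GrnKO cells (adjusted p = 1.24e-05). Zfp36, the mRNA-decay factor tristetraprolin that limits Tnf, fell by 0.43 ± 0.07 with Grn loss (adjusted p = 6.49e-05). Dusp2, of another MAP kinase phosphatase, went the other way and fell by 1.06 ± 0.20 with editing of GrnKO cells (adjusted p = 0.000656).

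The inflammasome and interleukin-1 release genes were split, with 6 of 16 falling and 4 rising with Grn loss (median -0.02), or 4 and 4 by limma-trend, and 3 rising and 2 falling with editing of GrnKO cells (median 0.00, or 0.0042), or 2 and 3 by limma-trend. Txnip, which can bind NLRP3, fell by 0.53 ± 0.09 (adjusted p = 0.000109). Il18, another substrate of caspase-1, ran opposite to Nlrp3: it rose by 0.42 ± 0.09 with Grn loss (adjusted p = 0.000992) and fell by 0.71 ± 0.09 with editing of GrnKO cells (adjusted p = 1.48e-05), at 29.1 ± 2.80 CPM in WT Rosa26, 38.9 ± 0.614 CPM in GrnKO Rosa26, and then 23.8 ± 2.24 in GrnKO TKO. P2rx7, the ATP-gated channel upstream of NLRP3, rose with editing in WT cells by 0.68 ± 0.09 (adjusted p = 0.000213).

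Of the toll-like and interleukin-1 receptor signalling genes, 11 of 17 rose and 2 fell with Grn loss (median 0.40), and 1 rose and 7 fell with editing of GrnKO cells (median -0.19), and by limma-trend the counts were 12 and 2 and then 0 and 8. Ticam2, the TRAM adaptor of TLR4, rose by 0.94 ± 0.10 with Grn loss (adjusted p = 5.42e-07) and fell by 0.54 ± 0.09 with editing of GrnKO cells (adjusted p = 0.000288). Cd14, the co-receptor for lipopolysaccharide, fell with Grn loss by 0.58 ± 0.07 (adjusted p = 4.44e-06). Among cytokine receptors and the genes of their shedding and decoys, 5 of 13 rose and 1 fell with Grn loss (median 0.32). Il18bp, the decoy receptor of interleukin-18, rose by 0.88 ± 0.17 (adjusted p = 0.000424), and Tnfrsf1b, of TNF receptor 2, by 0.44 ± 0.09 (adjusted p = 0.000665). Il1r1, the interleukin-1 receptor, was higher in GrnKO TKO than in WT Rosa26 by 1.31 ± 0.18 (adjusted p = 0.000165).

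**Figure D4:**
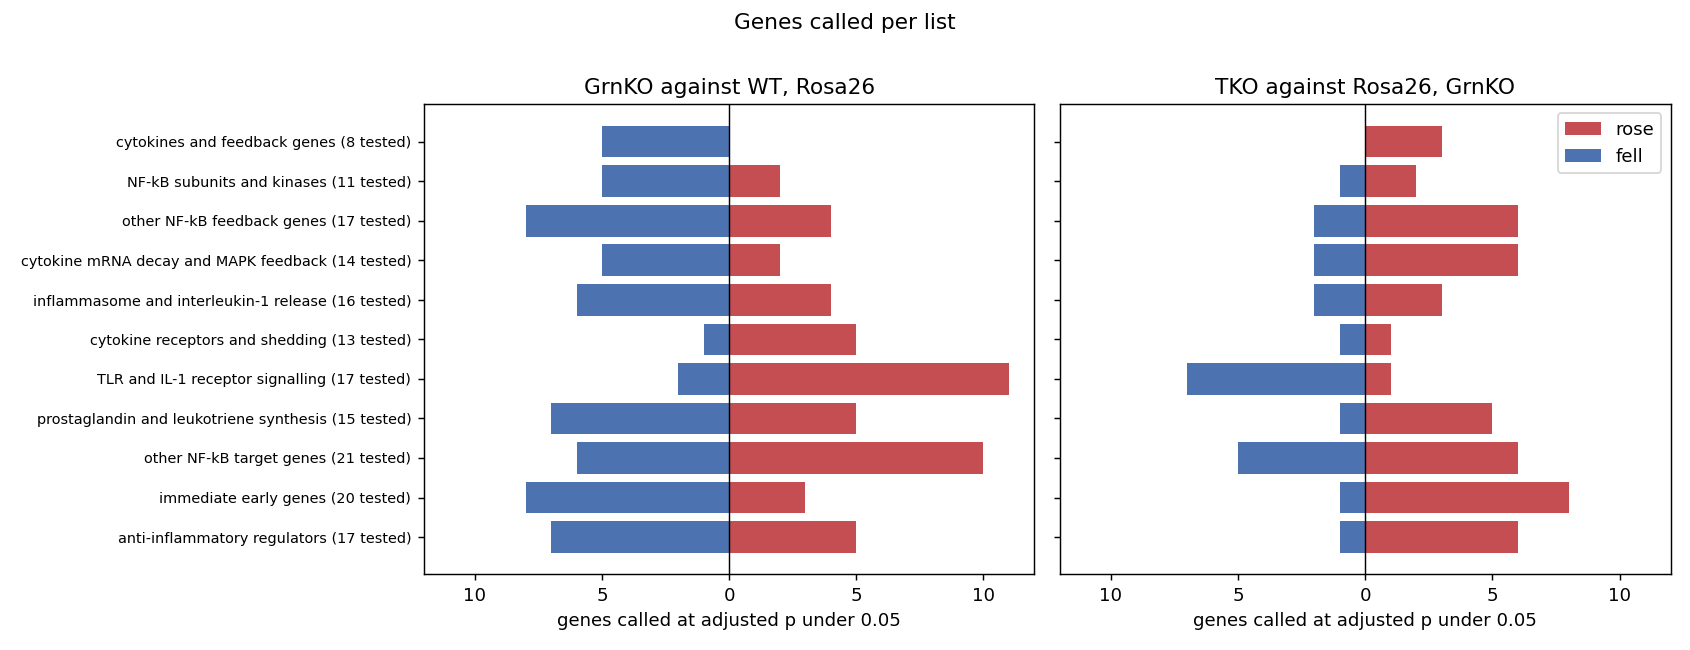
Number of genes that passed the threshold upward (right) and downward (left) in each list, with Grn loss in Rosa26 cells and with editing of GrnKO cells. The 8 cytokine and feedback genes show 5 falls and then 3 rises, the immediate early genes 8 falls and then 8 rises, and the toll-like and interleukin-1 receptor genes 11 rises and then 7 falls.

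Around Ptgs2, the prostaglandin and leukotriene genes gave 7 of 15 falling and 5 rising with Grn loss (median -0.31) and 5 rising and 1 falling with editing of GrnKO cells (median 0.22). With Grn loss, RLE scaling and DESeq2 each gave 7 falling and 3 rising, and limma-trend 7 and 5. Pla2g4a, the phospholipase that frees arachidonic acid for both pathways, fell by 0.98 ± 0.11 (adjusted p = 1.03e-06) and rose by 0.61 ± 0.11 with editing of GrnKO cells (adjusted p = 0.000301). Hpgds, the prostaglandin D2 synthase, rose by 0.96 ± 0.09 with Grn loss (adjusted p = 1.17e-07). Ltc4s, the leukotriene C4 synthase, rose with editing by 1.18 ± 0.13 in GrnKO (adjusted p = 3.71e-06) and 0.84 ± 0.13 in WT cells (adjusted p = 0.00115). Hpgd, which degrades prostaglandins, fell by 1.32 ± 0.24 with Grn loss (adjusted p = 0.00023) and rose by 1.66 ± 0.23 with editing of GrnKO cells (adjusted p = 3.16e-05). Ptgs1, of the constitutive cyclooxygenase-1, rose with editing in WT cells by 1.05 ± 0.12 (adjusted p = 4.02e-05), from 17.3 ± 2.94 to 35.8 ± 4.87 CPM.

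Other known NF-kB targets did not follow Nfkbiz, Nlrp3 and Ptgs2 as a group. Of 31 such genes 21 could be tested, and 10 rose and 6 fell with Grn loss (median 0.25). Ier3, an early survival gene, rose by 0.86 ± 0.10 (adjusted p = 1.85e-06), and Marcksl1 fell by 1.18 ± 0.18 (adjusted p = 4.44e-05). With editing of GrnKO cells 6 rose and 5 fell (median -0.02), or 4 and 6 by limma-trend, with the maturation marker Cd83 (-0.77 ± 0.11, adjusted p = 6.76e-05) and the transcription factor Irf1 (-0.63 ± 0.09, adjusted p = 7.52e-05) falling. Saa3, an acute phase gene, rose with editing in WT cells by 1.81 ± 0.27 (adjusted p = 0.00534).

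Immediate early genes, which respond within minutes to signals and to handling, gave 8 of 20 falling and 3 rising with Grn loss (median -0.25) and 8 rising and 1 falling with editing of GrnKO cells (median 0.28). Fos was lowest in GrnKO Rosa26 (80.2 ± 13.9 CPM), followed by GrnKO TKO (125 ± 21.7), WT TKO (168 ± 38.1) and WT Rosa26 (179 ± 16.8), falling by 1.17 ± 0.08 (adjusted p = 1.91e-09) and rising by 0.63 ± 0.08 (adjusted p = 8.55e-06) in these comparisons. Nr4a1 fell by 1.34 ± 0.09 with Grn loss (adjusted p = 1.34e-09). Of the anti-inflammatory regulators 7 of 17 fell and 5 rose with Grn loss (median -0.14), and 6 rose and 1 fell with editing of GrnKO cells (median 0.19), or 5 and 2 by limma-trend. Il10, the main macrophage cytokine that restrains these genes, fell by 1.25 ± 0.22 with Grn loss (adjusted p = 0.00014), from 4.36 ± 1.89 to 1.70 ± 0.156 CPM, and rose by 1.16 ± 0.21 with editing of GrnKO cells (adjusted p = 0.000441). Both the inflammatory genes Nlrp3, Nfkbiz and Ptgs2 and this restraining cytokine were thus lowest in GrnKO Rosa26.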

How the data were processed

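RNA of 16 samples was measured by 3′ tag sequencing. In the submitters' processing notes, R 4.5.1, edgeR 4.6.2, Salmon 1.10.1, STAR 2.7.9a and the build GRCm39 are named without their roles. How molecular identifiers and strand were handled is not given in the sources used here, so reads of overlapping or antisense genes cannot be told apart. As deposited, the values are estimated counts per gene (11% of non-zero values not whole) and the authors' normalised signal, both rounded to 2 significant digits, an error of up to 5% in a value. Estimated counts were rounded to whole numbers, filtered by filterByExpr on group, scaled by TMM over the genes kept, and fitted with edgeR 4.0.16 (R 4.3.3) by quasi-likelihood with group and batch over all samples, with Benjamini-Hochberg adjustment over 15385 genes and a threshold of 0.05. CPM, SD over 4 samples and per-batch log2 differences (pseudocount of 0.5 counts, added before scaling) were computed here. P-values measure the spread between samples that is left after group and batch, estimated for each gene. The biological coefficient of variation common to all genes tested was 12%, and single genes differ from it.

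Batch is in the model because the series design gives it. As a check, deviations from group means correlated at 0.118 to 0.402 within the 8 pairs that share both batch and genotype (mean 0.243), at a mean of 0.0657 across genotypes of a batch and at -0.0412 across batches. Alternatives were RLE scaling, no filter, a filter at a mean of 5 CPM, limma-trend (limma 3.58.1) on log2 of the authors' normalised signal plus 1, DESeq2 1.42.0, other batch terms, only the groups compared, each sample left out, and the libraries with Ddx3y at 10 CPM or more left out. Genes named are the 10 genes, in each list and comparison the genes with the smallest p (at most 3), the 3 genes most correlated with each tested gene (1 of them is not reported here), Grn, the edited genes and the cell type markers. The genes, lists and tests were chosen with earlier results of these data known. Xist and Ddx3y were likewise chosen after their values were seen.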

Additional observations from a re-analysis of the deposited data

Results flagged for a closer look

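For 2 of the genes, the effect of editing Mitf, Tfe3 and Tfeb differed between GrnKO and WT cells by a test of the difference itself. Nlrp3 gave a difference of 0.84 (log2, adjusted p = 0.00413, edgeR's quasi-likelihood test), higher in 4 of 4 batches, and stayed past the threshold under all 24 alternatives (0.71 to 0.97, adjusted p 0.000188 to 0.0487). Nfkbiz gave 1.08 (adjusted p = 0.00979), higher in 4 of 4 batches, and passed under 23 of 24 (0.84 to 1.28, adjusted p 7.31e-05 to 0.12), with the exception of the fit without the libraries that hold Ddx3y. Of 40 sets of 4 libraries (10 genes in 4 groups), Dixon's criterion singled out no library, where chance would single out about 1 in 20.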

How the results depend on the processing

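Over all alternatives, 1120 values of single genes kept their side of the threshold, 24 lost it, 12 gained it, and no called value changed sign. Nlrp3, Nfkbiz and Ptgs2 passed under every alternative with Grn loss in Rosa26 cells (highest adjusted p 0.00318) and with editing of GrnKO cells (highest 0.00482). With Grn loss in Rosa26 cells the number of the 8 genes called was 5, but 3 with only the groups compared, 3 without the libraries with Ddx3y, 3 to 6 when single libraries were left out, and 6 by DESeq2, which added Il1rn (adjusted p = 0.0281). With editing of GrnKO cells it was 3, and 5 with only the groups compared, where calls over all 15385 genes also went from 5011 to 7268. With editing of WT cells it was 2, but 1 with no replicate block, 0 without the libraries with Ddx3y and 1 to 2 with single libraries left out. With Grn loss in TKO cells it was 1, but 2 with no filter, 0 without the libraries with Ddx3y and 1 to 3 with single libraries left out (3 without GrnKO TKO replicate 1). The difference between the genotypes was called for 2 genes, or 1 without the libraries with Ddx3y. That setting has fewer samples and no batch term, and edgeR's quasi-likelihood test there gave 2 genes with editing of WT cells and 1 with Grn loss in TKO cells at an unadjusted p under 0.05. With no replicate block the calls with Grn loss in Rosa26 cells were 4, and with a replicate block per genotype the difference between the genotypes was called for 3 genes, with Il1b added (-0.95, adjusted p = 0.0402). Over all genes, no replicate block gave 216 calls with editing of WT cells, 345 with Grn loss in TKO cells, 732 for GrnKO TKO against WT Rosa26 and 910 for the difference between the genotypes, against 515, 767, 1950 and 2067. Without the libraries with Ddx3y these 4 counts over all genes were 15, 45, 152 and 385, so few genes of any kind were called there. With Grn loss in Rosa26 cells 4568 genes were called in that setting, 5537 with only the groups compared and 6842 by DESeq2, against 6858. The cause of these changes was not tested. GrnKO TKO against WT Rosa26 gave 0 calls in every setting. Low counts limit Il6, Il1a and Il1b, and the shallow WT Rosa26 replicate 1 limits each comparison with that group.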
